A study of Mus musculus with 6 samples.

Results

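Hepatic stellate cells that carry transcripts of pericentral position were taken from single-cell RNA libraries of congested mouse livers and described by their genes, against stellate cells of the portal type, and between mice given CWHM-12 and mice given DMSO. A barcode was a stellate cell when at least 3 of Reln, Colec11, Ecm1, Dcn, Lrat, Hgf and Sod3 were seen in it and at most 1 UMI (a counted molecule) fell on Stab2, Clec4g, Clec4f, Cd79a, Epcam and Msln, which mark endothelium, Kupffer cells, B cells, cholangiocytes and mesothelium. It was of the pericentral type when it also held at least 1 UMI of Adamtsl2, Rspo3, Spon2 or Loxl1 and 0 UMIs of Ngfr. This left 938 cells of 2278 stellate cells and of 38697 cells in all. Stellate cells with Ngfr and with 0 UMIs of the 4 zonal genes, called portal-type here, numbered 255. Another 627 stellate cells held both kinds of transcript and 458 held neither.

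All mice were wild-type males in which the inferior vena cava had been partially ligated (pIVCL) at 8 to 10 weeks of age, an operation that congests the liver. An osmotic pump put in 2 weeks later gave either CWHM-12 at 100 mg/kg/day, a small-molecule inhibitor of integrins with the αV subunit, or its vehicle DMSO, for 4 weeks. There were 3 libraries of each group. Batch 2024.6 holds CWHM-12 1, DMSO 1 and DMSO 2, and batch 2024.12 holds CWHM-12 2, CWHM-12 3 and DMSO 3. Per the labels the suspension was set to contain hepatocytes as a minority beside nonparenchymal cells, so shares of cells are given only within the stellate cells. No mouse identifier is printed for a library, so the error behind each p-value is the variation among libraries, part of which could be technical.

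Stellate cells store vitamin A in the space between hepatocytes and the sinusoid, wrap the sinusoidal endothelium, and are the main source of scar matrix in the injured liver. Those near the central vein and those near the portal tract differ in the genes they use. Around the central vein R-spondin 3, encoded by Rspo3, strengthens Wnt signalling and so helps to keep the pericentral programme of hepatocytes. Adamtsl2 is a secreted protein of the microfibrils that bind latent TGF-β, Loxl1 crosslinks elastin, Spon2 is a secreted matrix protein, and Ngfr is the low-affinity nerve growth factor receptor. Integrins with the αV subunit bind vitronectin and fibronectin, and several of them set TGF-β free from its latent complex.

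The libraries held 31294555, 40382504 and 48100436 UMIs with CWHM-12 and 30836277, 28220477 and 44557538 UMIs with DMSO. Pericentral-type cells numbered 73, 226 and 150 in CWHM-12 1 to 3 and 140, 65 and 284 in DMSO 1 to 3, with a median of 2534 UMIs and 8.11% mitochondrial UMIs per cell. Portal-type cells were shallower, with a median of 1622 UMIs and 12.4% mitochondrial UMIs. DMSO 2 stood apart from the other libraries. The median correlation of its pericentral-type profile with those of the others was 0.775, against 0.858 to 0.903 for the other libraries, and its stellate cells held 2064 CPM (UMIs scaled to a common library total) of Ecm1, a secreted matrix protein, against 7505 to 13946 CPM elsewhere.

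The zonal genes that chose the cells are given as a description. Rspo3 was seen in 808 of the 938 cells (86.1%), Adamtsl2 in 311 (33.2%), Loxl1 in 180 (19.2%) and Spon2 in 59 (6.29%). Rspo3 alone admitted 489 cells (52.1%), Adamtsl2 alone 67, Loxl1 alone 40 and Spon2 alone 3. So the class is in large part defined by Rspo3. A zonal UMI was seen in 68.7% of all stellate cells, at a median of 2328.5 UMIs. In cells that should lack these genes it was seen in 2.98% of 2890 Kupffer cells and in 1.02% of 2149 B cells, at medians of 2960 and 2379 UMIs. Barcodes with a UMI of the 7 stellate genes had been kept out of both sets, so these shares are low estimates of the background.

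Absence of Ngfr and presence of the zonal genes overlapped only in part. Shares here are pooled over libraries. After every stellate cell was thinned to 1000 UMIs, which left out 0 to 121 shallower cells a library, Adamtsl2 was seen in 9.16% of 1561 cells without Ngfr and in 5.06% of 455 cells with it. Rspo3 was seen in 45.04% of the cells without Ngfr and in 38.02% of those with it. Loxl1 was seen in 5.32% and Spon2 in 1.67% of the cells without Ngfr, against 2.64% and 0.44% of those with it. Single libraries went the other way, DMSO 3 for Adamtsl2 (16.5% without Ngfr and 17.8% with it), DMSO 1 for Rspo3, and CWHM-12 1 and DMSO 3 for Loxl1. At this depth Adamtsl2 was seen in 8.33% of cells with Rspo3 and in 8.16% of cells without Rspo3. Before thinning, 627 of the 882 cells with Ngfr also held a zonal UMI. Position in the lobule was not measured, and the class name rests on these transcripts.

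Most of the 938 cells showed most of the stellate genes of the rule. All 7 stellate genes were seen in 552 cells and 6 of them in 236, so that 788 cells (84.0%) had 6 or 7. These 788 cells held 5433 CPM of Reln, the secreted glycoprotein reelin, 2208 CPM of Lrat, the enzyme that esterifies retinol for storage, and 1631 CPM of Rgs5, a regulator of G protein signalling typical of pericytes. Reln and Lrat are genes of the rule, so their levels restate this choice, while Rgs5 is not. A further 68 cells had 5 of the 7 genes and 82 cells (8.74%) had 3 or 4.

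The 82 cells with 3 or 4 stellate genes differed from the others in genes outside the rule. They held 20.6 CPM of Rgs5 at a median of 3272 UMIs per cell. Their 198.5 CPM of Reln and 56.7 CPM of Lrat are low by the choice itself. They held 9886 CPM of Col1a1, a chain of fibrillar collagen I, 1415 CPM of S100a6 and 1518 CPM of Acta2, the actin of smooth muscle and myofibroblasts. The mesothelial genes Upk3b and Gpm6a stood at 660.0 and 425 CPM in them, against 4.54 and 2.44 CPM in the cells with 6 or 7 genes. Markers of mesothelium, fibroblasts and smooth muscle were thus concentrated in cells at the edge of the rule. The label "stellate" goes against the markers outside the rule in these 82 cells, so named genes and list counts whose call changes are also given for 822 pericentral-type and 225 portal-type cells with at least 5 stellate genes and with barcodes rich in macrophage or haemoglobin transcripts or with a high doublet score left out. That restriction was chosen after these values were seen.

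**Figure D1:**
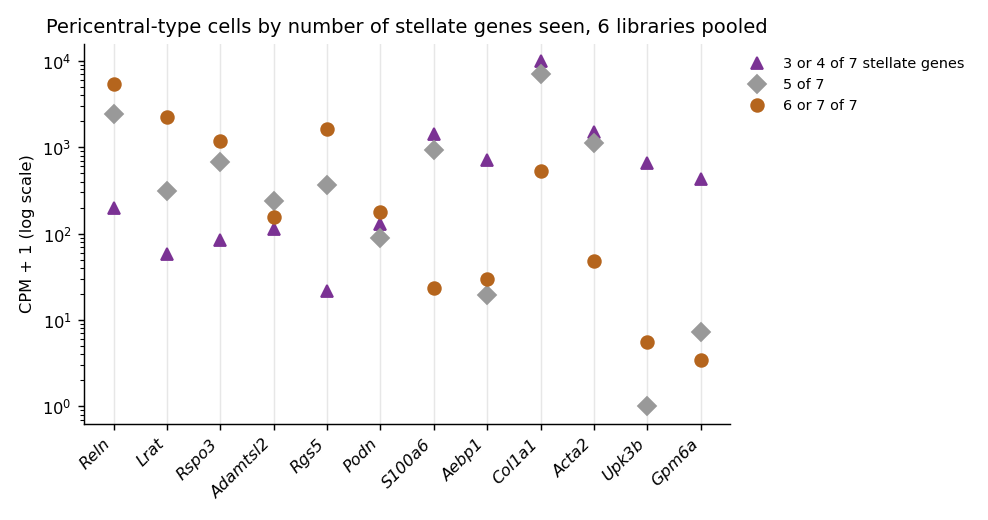
Pooled level (CPM + 1, log axis) of 12 genes in pericentral-type cells with 3 or 4 (triangles, 82 cells), 5 (diamonds, 68 cells) or 6 or 7 (circles, 788 cells) of the 7 stellate genes, 6 libraries together. Reln, Lrat and Rgs5 are lowest and S100a6, Col1a1, Upk3b and Gpm6a highest in the cells with 3 or 4 stellate genes, while Podn differs little.

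At the thresholds of the rule, the 50 cells with exactly 3 stellate genes held 170 CPM of Reln, and 54 cells just outside with 2 such genes held 46.9 CPM. Reln is a gene of the rule, so this difference restates the choice. Of genes outside the rule, Col1a1 was at 3408 CPM in the 50 cells and 439 CPM in the 54. Upk3b was at 1103 and 646 CPM and Podn at 130 and 137 CPM, in the same order. The 194 cells with 1 UMI of the excluded genes held 3842 CPM of Reln, and 54 cells just outside with 2 such UMIs held 3390 CPM. The 214 cells with a single zonal UMI held 3564 CPM of Reln at a median of 1452 UMIs. The 458 cells without zonal UMI and without Ngfr held 1747 CPM at a median of 1505 UMIs, and 247 cells kept out by 1 UMI of Ngfr held 4455 CPM, beside 4696 CPM over all pericentral-type cells.

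Pericentral-type cells made up 25.3%, 42.8% and 46.2% of the stellate cells in CWHM-12 1 to 3 and 32.4%, 43.6% and 51.2% in DMSO 1 to 3. The groups overlapped, and batch 2024.6 held the lowest value of each. The mean was 38.1% ± 11.2 with CWHM-12 and 42.4% ± 9.44 with DMSO (SD, n = 3 each), a difference of -4.33 percentage points that did not exceed the spread between libraries (exact two-sided permutation test, p = 0.6, smallest possible p = 0.1). Within batch 2024.6 the difference was -12.8 points and within batch 2024.12 -6.69 points. It was 2.08 points without CWHM-12 1 and 0.0563 points without DMSO 3. After thinning to 1000 UMIs it was -1.58 points (exact permutation test, p = 0.8). It was -7.27 points in the restricted cells, -6.93 points with at least 5 stellate genes and -8.24 points under a stricter cell filter (exact permutation tests, p = 0.5, 0.5 and 0.4).

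**Figure D2:**
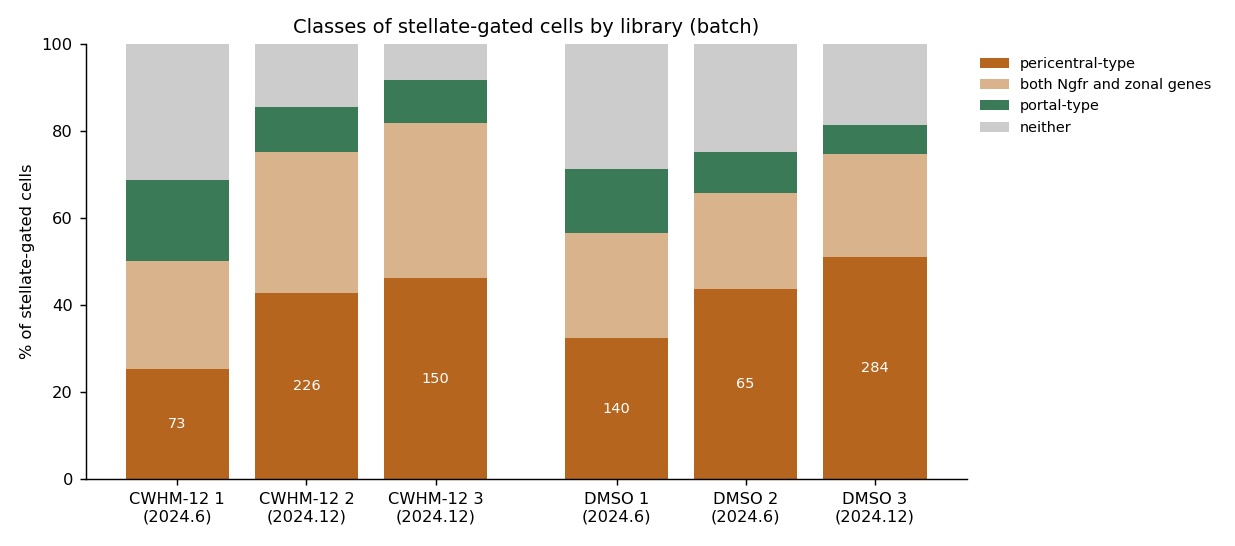
Share (%) of stellate cells in each of 4 classes by library, with the batch in brackets and the number of pericentral-type cells in each bar. The pericentral-type share runs from 25.3% to 46.2% with CWHM-12 and from 32.4% to 51.2% with DMSO.

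Pericentral-type cells differed from portal-type cells of the same library in genes other than those of the rule, among them matrix, adhesion and signalling genes. UMI counts were summed per library and type, and the 5 libraries with at least 20 cells of each type were compared with the library as a block (edgeR's quasi-likelihood test with Benjamini-Hochberg adjustment over all genes). DMSO 2, with 14 portal-type cells, was left out. Of 3056 genes tested, 221 differed (7.23%), 76 higher (2.49%) and 145 lower (4.74%) in pericentral-type cells, at a median over all genes of -0.0026 (log2 pericentral-type over portal-type). In the restricted cells 283 of 2411 genes passed, and with a stricter cell filter (500 genes, 1000 UMIs, 15% mitochondrial UMIs) 136 of 4362. The stricter fit kept only CWHM-12 2, CWHM-12 3 and DMSO 3, which are of the same batch. The other libraries had fewer than 20 portal-type cells left. For a gene that missed the threshold there, the effect of the filter and the loss of libraries cannot be told apart. In all 3 fits 78 genes passed, 29 higher and 49 lower in pericentral-type cells. The 49 include the mitochondrial mt-Nd1, at 8534 CPM in pericentral-type and 12978 CPM in portal-type cells (log2 -0.60). They also include the noncoding RNA Malat1, at 3724 and 10780 CPM in the same order (log2 -1.25). Under the stricter filter these 2 were at -0.46 and -0.80, and the part of cell quality in the 78 was not tested. Levels below are CPM on TMM-scaled library sizes, in the order CWHM-12 1, CWHM-12 2, CWHM-12 3, DMSO 1 and DMSO 3.

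Genes of hedgehog, FGF and Wnt signalling stood among the 29 that were higher. Hhip, which binds hedgehog ligands and holds them off their receptor, had 915, 919, 865, 1094 and 1077 CPM in pericentral-type cells and 415, 322, 301, 342 and 531 CPM in portal-type cells. The lowest pericentral-type library lay above the highest portal-type one, with a log2 difference of 1.37 (SE 0.20, adjusted p = 0.000543). Gas1, a co-receptor for hedgehog that is also on the list of portal fibroblast markers, averaged 512 ± 126 CPM in pericentral-type and 160 ± 47.6 CPM in portal-type cells (SD, n = 5 each), higher in 5 of 5 libraries (log2 1.68, 1.0502 in the restricted cells). Fgfr2, a receptor of fibroblast growth factors, averaged 1877 ± 172 CPM in pericentral-type and 807 ± 199 CPM in portal-type cells, again without overlap (log2 1.24, adjusted p = 0.000507). Nkd1, a Wnt target that dampens the pathway, averaged 321 ± 44.7 CPM in pericentral-type and 128 ± 26.3 CPM in portal-type cells (log2 1.30). Of 12 Wnt and R-spondin genes tested besides those of the rule, 2 passed as higher and 0 as lower, with a median of 0.02. The other was Dkk3, a secreted Dickkopf family member, at log2 2.17 (adjusted p = 0.00925). It had too few counts to be tested in the restricted cells.

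Adamts5, Ano1, Ogn and Lum were also higher. Adamts5, a protease that cuts proteoglycans, had 926, 684, 369, 710.1 and 349 CPM in pericentral-type cells and 166, 149, 31.7, 177 and 177 CPM in portal-type cells. Each library was higher in the pericentral type, and the types did not overlap (log2 2.09, SE 0.27, adjusted p = 0.000295). Ano1, a calcium-activated chloride channel, averaged 310.3 ± 56.5 CPM in pericentral-type and 56.1 ± 21.3 CPM in portal-type cells (log2 2.43, adjusted p = 0.000133). The small leucine-rich proteoglycans Ogn and Lum, which bind collagen fibrils, were at log2 1.66 and 1.23, and these were the 2 of 19 fibrillar collagen and crosslinking genes that passed. Lum missed the threshold under the stricter filter (adjusted p = 0.0573). The list had 0 lower genes and a median of -0.09. Of 16 tested in the restricted cells 2 were higher and 3 lower, with a median of -0.36.

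Alcam, a cell adhesion molecule, was at log2 2.47, and Lpar1, a receptor of lysophosphatidic acid, at 2.35. Lhx2, a transcription factor that holds mouse stellate cells quiescent, averaged 579.7 ± 132 CPM in pericentral-type and 247 ± 90.9 CPM in portal-type cells (log2 1.25). Cxcl12, the chemokine that stellate cells make in quantity, averaged 9008 ± 1382 CPM in pericentral-type and 6149 ± 1606 CPM in portal-type cells (log2 0.58, adjusted p = 0.0145). Tgfbi, a matrix protein induced by TGF-β, was at 0.67. Adm, the vasodilator peptide adrenomedullin, chosen after its values were seen, had 714, 752, 286, 722 and 963 CPM in pericentral-type cells and 152, 184, 79.2, 164 and 324 CPM in portal-type cells (log2 1.95, adjusted p = 8.48e-05). All of these were higher in 5 of 5 libraries, although Adm in CWHM-12 3 of the pericentral type lay below DMSO 3 of the portal type.

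Some of the largest rises rested on few cells. S100a6 was at log2 4.32, Podn at 3.11, Gpx3 at 2.95, Aebp1 at 2.90 and Enpp2 at 2.52, each higher in 5 of 5 libraries. None of the 5 had enough counts to be tested in the restricted cells. Pooled over those cells, Podn, a leucine-rich proteoglycan, had 171 CPM in pericentral-type and 10.95 CPM in portal-type cells, and Gpx3, a secreted glutathione peroxidase, 158 and 37.2 CPM in the same order. S100a6 had 32.0 CPM in pericentral-type and 8.76 CPM in portal-type cells, Aebp1 19.8 and 13.1 CPM, and Enpp2, which makes lysophosphatidic acid, 10.4 and 10.95 CPM. Most S100a6 and Aebp1 thus lay outside the restricted cells, while Podn was high within them. Of 16 portal fibroblast markers, 12 to 15 were seen per library in pericentral-type cells, summing to 1193 to 1636 CPM with CWHM-12 and 872 to 1103 CPM with DMSO. In portal-type cells 4 to 8 of them were seen, summing to 370.3 to 626 CPM with CWHM-12 and 282 to 500.3 CPM with DMSO. Of these markers Gas1 and Gsn passed as higher, but Gsn, at 1.15, was at 0.31 in the restricted cells (adjusted p = 0.564). Col1a1 was at log2 1.29 (adjusted p = 0.0594) in all cells and at -0.15 in the restricted cells.

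**Figure D3:**
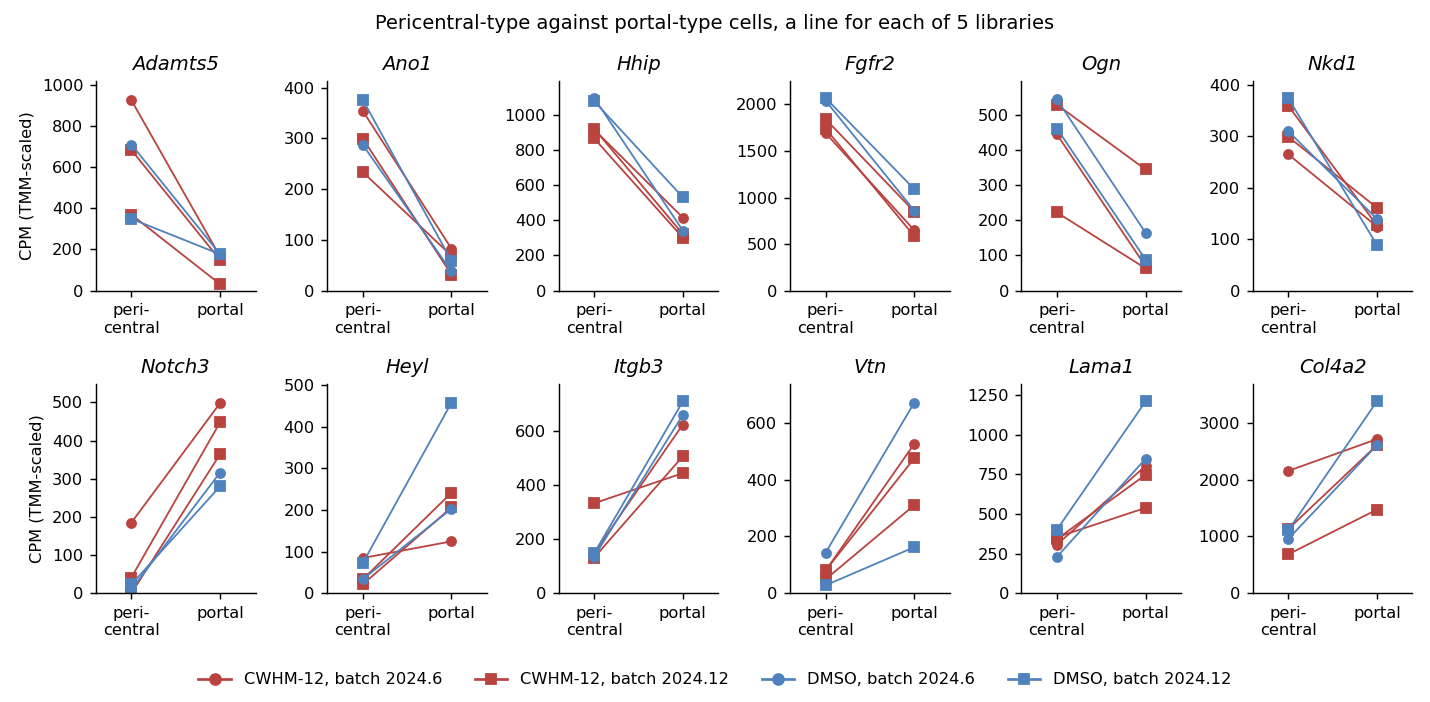
Level (CPM, TMM-scaled) of 12 genes in pericentral-type and portal-type cells, a line for each of 5 libraries, coloured by treatment and marked by batch. The 6 genes of the upper row are higher and the 6 of the lower row lower in pericentral-type cells in all 5 libraries, for example Fgfr2 at 1877 against 807 CPM and Vtn at 75.9 against 429 CPM on average.

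Of 7 Notch genes tested, 3 were lower in pericentral-type cells and 0 higher. Notch3, the Notch receptor of mural cells, had 185, 41.3, 0, 9.66 and 23.1 CPM in pericentral-type cells and 498, 448, 364, 316 and 280.1 CPM in portal-type cells. Every pericentral-type library lay below every portal-type one, and the highest, CWHM-12 1, was the library with the most smooth muscle transcripts (log2 -3.46, SE 0.48, adjusted p = 0.000413). Heyl, a transcription factor that Notch induces, averaged 49.1 ± 27.6 CPM in pericentral-type and 246 ± 125 CPM in portal-type cells (SD, n = 5 each, log2 -2.43). Jag1, a Notch ligand, was at -1.09 (adjusted p = 0.0482) and missed the threshold under the stricter filter (adjusted p = 0.589). That leaves 2 of 8 tested under that filter. Of 11 smooth muscle markers listed in the files, 5 to 9 were seen per library in pericentral-type cells, summing to 95.4 to 3824 CPM with CWHM-12 and 209 to 2249 CPM with DMSO. In portal-type cells 5 to 7 were seen, at 702 to 1596 CPM with CWHM-12 and 957 to 1326 CPM with DMSO. Notch3 is itself on that list, and the part of such cells in its difference was not tested.

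Of 13 genes tested from the list of αV integrins and ligands, 5 were lower in pericentral-type cells and 0 higher, at a median of -0.21. That list also holds Itga1 and Itga8, which encode other α subunits. Vtn, which encodes vitronectin, had 79.3, 49.1, 80.3, 143 and 28.1 CPM in pericentral-type cells and 526, 310.1, 475, 670.5 and 162 CPM in portal-type cells. It was lower in each of the 5 libraries and the types did not overlap (log2 -2.51, SE 0.21, adjusted p = 1.22e-05). Itgb3, the β3 partner of αV, averaged 179 ± 85.9 CPM in pericentral-type and 587 ± 109.7 CPM in portal-type cells (log2 -1.80, adjusted p = 0.000543), and Fn1, fibronectin, 807 ± 271 CPM in pericentral-type and 1874 ± 237 CPM in portal-type cells (log2 -1.27). Itgb1 was at -0.60 (adjusted p = 0.038) but missed the threshold under the stricter filter (adjusted p = 0.167). The αV subunit itself, Itgav, averaged 194 ± 49.9 CPM in pericentral-type and 212 ± 68.5 CPM in portal-type cells (log2 -0.15, adjusted p = 0.78). The partner Itgb5 was at -0.16 (adjusted p = 0.76). Under the stricter filter 3 of the 13 were lower.

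Basement membrane was the list with the most lower genes among the matrix lists. Of 16 such genes, 8 were lower and 0 higher, with a median of -0.69, and in the restricted cells 9 of 15 were lower with a median of -0.92. Lama1, a laminin α chain, averaged 327 ± 64.0 CPM in pericentral-type and 829 ± 243 CPM in portal-type cells (log2 -1.33, adjusted p = 0.00143), lower in 5 of 5 libraries without overlap. Lamc1, a laminin γ chain, was at -1.01, and the collagen IV chain Col4a2 averaged 1207 ± 558 CPM in pericentral-type and 2554 ± 685 CPM in portal-type cells (log2 -1.14, adjusted p = 0.00186). Here the types overlapped, since CWHM-12 1 of the pericentral type lay above CWHM-12 3 of the portal type. Of the elastic fibre genes, Emilin1 was at -1.08 and Ltbp4, a binding protein of latent TGF-β, at -0.67, the 2 of 10 that passed, and in the restricted cells 4 of 10 were lower.

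Signalling genes that were lower included receptors for vasoactive and neural signals. Rgs4, a brake on G protein signalling, averaged 133 ± 76.3 CPM in pericentral-type and 743 ± 278 CPM in portal-type cells (log2 -2.59, adjusted p = 1.33e-05). Adcyap1r1, the receptor of the neuropeptide PACAP, had 5.29, 25.5, 29.5, 7.25 and 11.04 CPM in pericentral-type cells and 221, 126, 222, 127 and 103 CPM in portal-type cells (log2 -3.21, SE 0.40). Each pericentral-type value lay below each portal-type value. Kcnk3, a potassium channel that sets resting potential, was at -2.66. Il34, a ligand of the macrophage receptor Csf1r, was at -1.22, Tnfrsf11b, the decoy receptor osteoprotegerin, at -1.13, Bmp2 at -0.92 and Pth1r, the parathyroid hormone receptor, at -1.08. Bmp2 and Pth1r missed the threshold under the stricter filter (adjusted p = 0.0692 and 0.0588). Piezo2, a mechanically gated channel chosen after its values were seen, was at -1.73 (adjusted p = 0.000543).

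Further lists varied in how many of their genes passed, where 7.23% of all 3056 genes tested did. In lists this short a count of 0 or 1 lies near that share. Of 11 vitamin A storage genes, 0 passed, with a median of 0.21 in edgeR's test, and 2 had an unadjusted p under 0.05. Bco1, which cleaves carotene to retinal, passed as higher in the restricted cells (0.93, adjusted p = 0.0216), 1 of 10 tested there. Of 22 contractile and activation genes, 1 was higher and 0 lower. That was Vim, the intermediate filament vimentin, at log2 1.25. In the restricted cells Vim remained higher (0.77, adjusted p = 0.0247) and 6 of 21 such genes were lower, among them Acta2 (-2.09, adjusted p = 0.00147), which was at -0.78 (adjusted p = 0.641) before the restriction. Of 19 TGF-β pathway genes 2 were higher and 2 lower, and of 18 BMP genes 0 and 1. Of 18 TGF-β genes tested in the restricted cells 1 was higher and 5 lower, and of 18 BMP genes 2 were higher, Smad6 and Gdf10, and 1 lower. Of 22 stellate identity genes 6 were higher and 3 lower, at a median of 0.39. Of 16 dissociation and early response genes 3 were higher, Hspb1, Jun and Junb, and 0 lower. Junb missed the threshold in the restricted cells (adjusted p = 0.0555) and Hspb1 had too few counts there to be tested.

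Of 21 hepatocyte markers tested, 10 were lower in pericentral-type cells and 0 higher, at a median of -0.93, and of 7 macrophage markers 4 were lower and 0 higher. All 24 hepatocyte markers were seen in each library of pericentral-type cells, summing to 2622 to 6835 CPM with CWHM-12 and 3262 to 11604 CPM with DMSO. In portal-type cells 21 to 24 were seen, summing to 4514 to 20266 CPM with CWHM-12 and 2062 to 26033 CPM with DMSO. Single libraries went the other way, since the hepatocyte sum of DMSO 3 was 3262 CPM in pericentral-type and 2062 CPM in portal-type cells, and the macrophage sum of CWHM-12 2 was 737 CPM in pericentral-type and 370.3 CPM in portal-type cells. Under the stricter filter 0 of 18 hepatocyte markers passed in edgeR's test, at a median of -0.20, and 0 of 9 macrophage markers. That fit lacked CWHM-12 1 and DMSO 1, whose portal-type hepatocyte sums were 20266 and 26033 CPM. The sums were 4514, 5434 and 2062 CPM in CWHM-12 2, CWHM-12 3 and DMSO 3, which it kept. The effect of the filter and the loss of libraries cannot be told apart here. The part that depth, mitochondrial content or RNA of other cells has in the zonal differences was not tested beyond these filters.

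Inside the pericentral-type cells 0 of 6775 genes (0.0%) passed between CWHM-12 and DMSO in edgeR's quasi-likelihood test with a batch term and Benjamini-Hochberg adjustment. At an unadjusted p under 0.05 there were 196 genes (2.89%). Every CWHM-12 library lay above every DMSO library for 345 genes (5.09%) and below for 358 (5.28%). DESeq2 called 6 genes, Ctss, Gm20186, H2-Aa, H2-Eb1, Lyz2 and Mpeg1, and limma voom called 0. Without DMSO 2, edgeR called 3 genes, without CWHM-12 2 it called 2, and without CWHM-12 1 it called 1. Levels below are in CPM, CWHM-12 1 to 3 before DMSO 1 to 3.

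The 10 genes of smallest p, with adjusted p from 0.442 to 0.555, were mostly genes of antigen-presenting cells. H2-Aa, an MHC class II chain, had 797, 182 and 955 CPM with CWHM-12 and 72.4, 37.1 and 67.8 CPM with DMSO (log2 3.41, SE 0.58). Ctss, the cathepsin that trims the class II invariant chain, had 158, 92.8 and 243 CPM with CWHM-12 and 29.8, 37.1 and 37.1 CPM with DMSO. The groups did not overlap for either gene. H2-Ab1, H2-Eb1, Cd74, Mpeg1 and Ly86 were likewise at log2 2.37 to 3.87. Of 15 Kupffer cell and macrophage markers, 13 to 15 were seen per library, summing to 737 to 1240 CPM with CWHM-12 and 230.4 to 404 CPM with DMSO, with Marco at 0 in 4 libraries and Timd4 and Tyrobp at 0 in 1 library each.

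These transcripts lay in few barcodes. Of 3454 UMIs of myeloid and MHC class II genes in pericentral-type cells with CWHM-12, 20 barcodes with at least 10 such UMIs held 3006 (87.0%). With DMSO, 19 such barcodes held 432 of 1082 UMIs (39.9%). UMIs of these genes in the other barcodes were set over the UMIs of all pericentral-type cells. They came to 256, 432 and 244 CPM with CWHM-12 and 272, 224 and 353 CPM with DMSO, so that the groups overlapped. The other barcodes were set apart by holding under 10 UMIs of the same genes, so their levels are bounded by the choice itself. The restricted cells share that limit, and in them H2-Aa was at log2 -0.14 and Lyz2 at 0.15. Hba-a1 was at 28.0, 7.14 and 9.43 CPM with CWHM-12 and 38.3, 7.41 and 607 CPM with DMSO, and 1 barcode of DMSO 3 held 1719 of the 1797 haemoglobin UMIs of that library's cells. Hba-a1 and Hba-a2 are nearly identical, so the division of reads between them is uncertain.

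Some named genes separated the groups without passing the test, as 5.09% of all genes did upwards and 5.28% downwards. The 5 given here were chosen among them after their values were seen. Ednrb, the endothelin receptor B, had 1916, 2384 and 1329.5 CPM with CWHM-12 and 3075, 3299 and 3132 CPM with DMSO. All CWHM-12 libraries lay below all DMSO libraries (log2 -0.74, SE 0.25, adjusted p = 0.9998). Colec10, a collectin, had 1366, 2059 and 1454 CPM with CWHM-12 and 2402, 2654 and 2440.2 CPM with DMSO (log2 -0.68), also without overlap. Igfbp4, which binds insulin-like growth factors, had 811, 739 and 818 CPM with CWHM-12 and 662, 452 and 418 CPM with DMSO (log2 0.72). Mmp2, a gelatinase, averaged 167 ± 20.4 CPM with CWHM-12 and 97.6 ± 27.9 CPM with DMSO (log2 0.82), and Bmpr2, a BMP receptor, 258 ± 27.3 CPM with CWHM-12 and 377 ± 41.0 CPM with DMSO (log2 -0.58; SD, n = 3 each). For these 5 genes the direction within each batch follows from the lack of overlap by which they were chosen. The restricted cells gave the same direction, but they are part of the same cells. Gsn, which encodes gelsolin, was at 1.399 and at 0.56 in the restricted cells, beside the portal fibroblast markers given above.

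Among genes that respond to TGF-β, Ccn2, a matricellular growth factor, had 2321, 1620.4 and 1815 CPM with CWHM-12 and 703, 656 and 1718 CPM with DMSO (log2 0.87, adjusted p = 0.9998). The groups overlapped, and the difference was 1.77 within batch 2024.6 and -0.0029 within batch 2024.12. Of 23 TGF-β pathway genes 12 were above 0, at a median of 0.03 against 0.0041 over all genes. Over all 6775 genes of this fit 50.5% were above 0. Of 22 fibrillar collagen genes 18 were above 0 (median 0.20), but 10 of 20 in the restricted cells (median -0.01). Of 24 contractile genes 18 were above 0 (median 0.42), with a median of 1.02 within batch 2024.6 and -0.02 within batch 2024.12. Smooth muscle markers summed to 3824 CPM in CWHM-12 1 and 2249 CPM in DMSO 2, both of batch 2024.6, against 95.4 to 788 CPM in the other libraries, and their part in these medians was not tested.

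The αV subunit gene Itgav had 233, 137 and 169.7 CPM with CWHM-12 and 126, 185 and 195 CPM with DMSO. Itgb1 averaged 1579 ± 226 CPM with CWHM-12 and 1760.2 ± 321 CPM with DMSO, and Itgb3 181 ± 96.7 CPM with CWHM-12 and 119.9 ± 12.7 CPM with DMSO. All 3 overlapped between the groups (log2 0.08, -0.12 and 0.44). Of 15 Wnt and R-spondin genes 3 were above 0, with a median of -0.24, and of 23 stellate identity genes 8 were above 0, with a median of -0.20. Over all 6775 genes 50.5% were above 0, and whether these lists depart from that share was not tested. With mitochondrial and ribosomal genes set aside, the most abundant gene outside those of the rule was Igfbp7. It averaged 12422 ± 602 CPM with CWHM-12 and 11595 ± 2028 CPM with DMSO (log2 0.02).

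**Figure D4:**
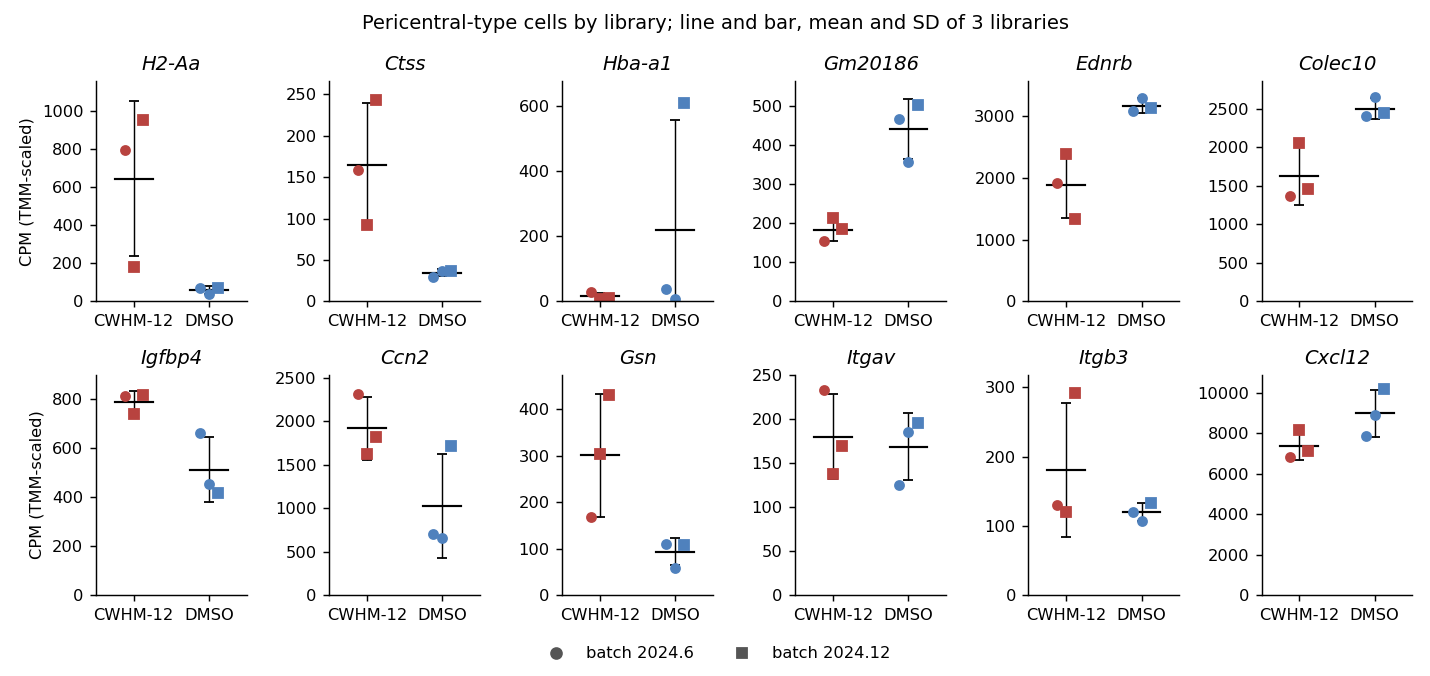
Level (CPM, TMM-scaled) of 12 genes in pericentral-type cells by library, CWHM-12 left and DMSO right, with the mean (line) and SD (bar) of 3 libraries and the batch as the marker. H2-Aa lies at 182 to 955 CPM with CWHM-12 and at 37.1 to 72.4 CPM with DMSO, Ednrb at 1329.5 to 2384 CPM with CWHM-12 and 3075 to 3299 CPM with DMSO, and Itgav overlaps.

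The genes of the zonal rule may be compared between treatments only in cells chosen without them, so all 2278 stellate cells were summed per library. In such sums fewer cells of a type and less RNA per cell cannot be told apart. Of 9900 genes 0 passed (0.0%) in edgeR's test, 224 had an unadjusted p under 0.05 (2.26%), every CWHM-12 library lay above every DMSO library for 376 (3.8%) and below for 480 (4.85%), DESeq2 called 3 haemoglobin genes and limma voom called 0. Loxl1 averaged 49.8 ± 2.63 CPM with CWHM-12 and 58.9 ± 23.7 CPM with DMSO (SD, n = 3 each). Rspo3, which admits most pericentral-type cells, had 610.5, 808 and 870.2 CPM with CWHM-12 and 653, 703 and 796 CPM with DMSO (log2 -0.04). Ngfr had 459, 373 and 369.8 CPM with CWHM-12 and 387, 241 and 179.8 CPM with DMSO (log2 0.79, SE 0.26, adjusted p = 1). Both overlapped between the groups. Reln had 2933, 3839 and 3598 CPM with CWHM-12 and 4268, 5129.7 and 4535 CPM with DMSO (log2 -0.48), without overlap. Reln is itself a gene of the rule that chose the stellate cells, so these cells were not chosen without it. Its values are therefore a description only.

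The zonal genes did not move as a block. Adamtsl2 had 29.8, 60.2 and 49.8 CPM with CWHM-12 and 100.3, 37.1 and 181 CPM with DMSO, so that DMSO 2 lay among the CWHM-12 libraries. Its log2 difference was -1.52 (SE 0.36, unadjusted p = 0.00268, adjusted p = 1, edgeR), -1.003 within batch 2024.6 and -1.70 within batch 2024.12. Spon2 ran the other way, with 16.3, 11.2 and 31.9 CPM with CWHM-12 and 12.5, 10.1 and 4.54 CPM with DMSO (log2 1.34, adjusted p = 1). Among the pericentral-type cells, 20.5%, 20.8% and 20% held Adamtsl2 with CWHM-12 and 41.4%, 23.1% and 51.4% with DMSO, a description since Adamtsl2 is part of the rule.

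Genes that were higher in pericentral-type than in portal-type cells leaned lower with CWHM-12 in the sums over all stellate cells. Of the 76 such genes 64 had a negative log2 difference, at a median of -0.33, while 49.5% of all 9900 genes were above 0, at a median of -0.0034. The median was -0.48 within batch 2024.6 and -0.20 within batch 2024.12. All CWHM-12 libraries lay below all DMSO libraries for 12 of the 76 and above for 0, where 4.85% of all 9900 genes lay below and 3.8% above, and 0 of the 76 passed edgeR's test. Of the 145 genes that were lower in pericentral-type cells 83 were above 0, at a median of 0.08. Within the pericentral-type cells themselves 53 of the 76 were negative, at a median of -0.13, where 50.5% of all 6775 genes were above 0. Without CWHM-12 1 the median over the 76 genes was -0.20, and without DMSO 3 it was -0.48. Both comparisons use cells of the same libraries, so they are not independent of each other.

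Examples, chosen after their values were seen, were Gpc3, Ano1, Hhip and Fgfr2. Gpc3, a glypican of the cell surface, had 173, 158 and 79.7 CPM with CWHM-12 and 270.3, 279.7 and 254 CPM with DMSO (log2 -0.88, SE 0.28, adjusted p = 1). Ano1 had 110.4, 129 and 165 CPM with CWHM-12 and 169.96, 199 and 222 CPM with DMSO (log2 -0.66). Hhip was at -0.52 and Fgfr2 at -0.35, and in all 4 the CWHM-12 libraries lay below the DMSO libraries. Podn was at -1.33, with DMSO 2 among the CWHM-12 libraries. The same direction for Dkk3 (-0.87) and for the chemokine Cxcl14 (-0.81) came without overlap.

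**Figure D5:**
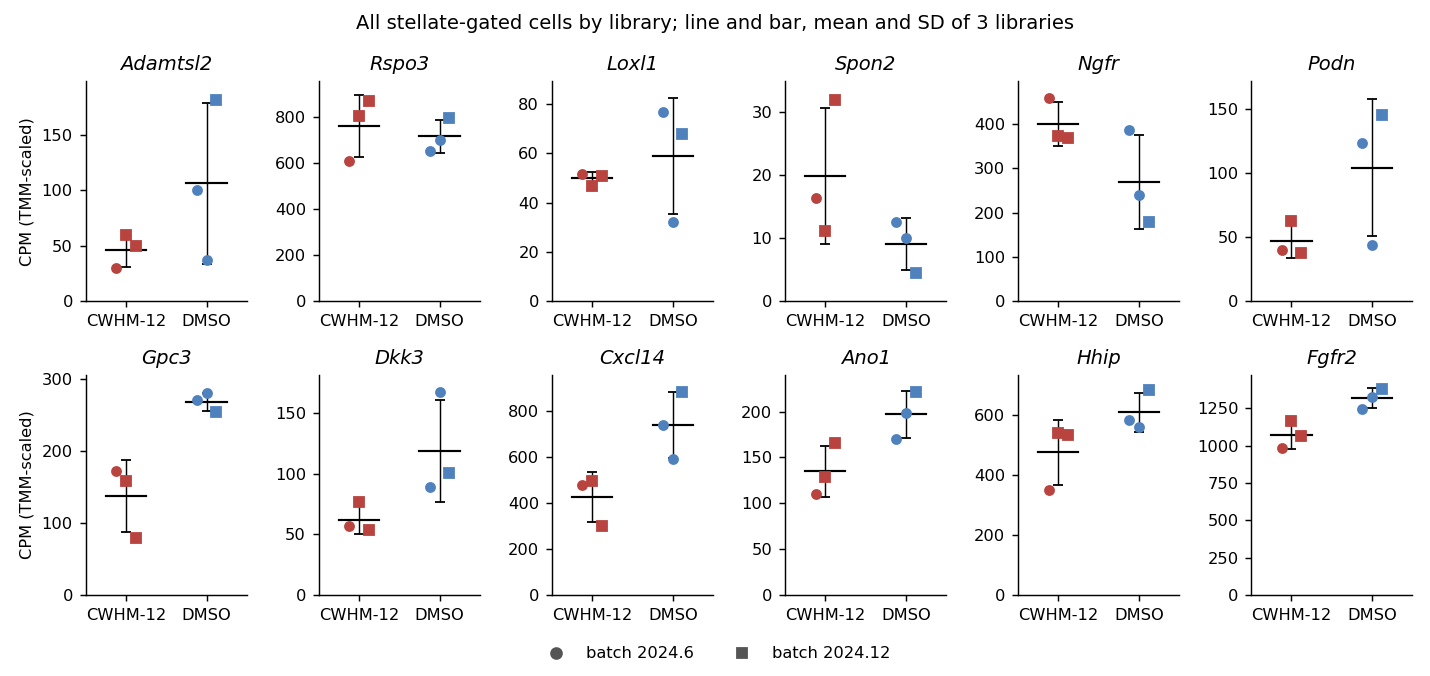
Level (CPM, TMM-scaled) of 12 genes in all stellate cells by library, CWHM-12 left and DMSO right, with the mean (line) and SD (bar) of 3 libraries and the batch as the marker. Adamtsl2 lies at 29.8 to 60.2 CPM with CWHM-12 and at 37.1 to 181 CPM with DMSO, Rspo3 overlaps, and Gpc3 lies at 79.7 to 173 CPM with CWHM-12 and 254 to 279.7 CPM with DMSO.

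Whether the response to CWHM-12 differed between the types was tested as the interaction of type and treatment over the same 5 libraries, with 2 DMSO libraries. Of 4323 genes 23 passed (0.532%), 17 with the higher log2 difference in pericentral-type cells (0.393%) and 6 with the lower (0.139%). The 17 included MHC class II and myeloid genes, Acta2 and the collagen genes Col1a1, Col1a2 and Col3a1, and the 6 were genes of hepatocyte metabolism. Col1a1, at an interaction of 2.29 (adjusted p = 0.000194), had 9022, 1818 and 607 CPM with CWHM-12 and 1051 and 853 CPM with DMSO in pericentral-type cells. In portal-type cells it had 683, 601 and 273 CPM with CWHM-12 and 837 and 850.2 CPM with DMSO. The high value was that of CWHM-12 1, the library with the most smooth muscle transcripts in its pericentral-type cells. For the αV partners the interaction did not pass, with Itgb3 at 0.73 (adjusted p = 0.798). In the restricted cells 6 genes passed, all lower, 2 of them among the 23 (Inmt and Phyh), and 11 of the 23 were tested there. Without CWHM-12 2 the count was 1, without CWHM-12 1 it was 51, without DMSO 1 it was 53 and without DMSO 3 it was 56.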

How the data were processed

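The 6 single-cell libraries were made on the BD Rhapsody platform. Per the file headers, the authors deposited whole-number UMI counts for each gene in each of 10000 barcodes a library, and no pair of libraries shared more than 5 barcodes. The submitters' processing notes name GRCm39 as genome build. The aligner is not given in the sources used here. Barcodes with at least 300 genes, 500 UMIs and at most 30% mitochondrial UMIs were kept. Doublets were scored with Scrublet (scanpy 1.11.5); a score over 0.25 marked 715 of 38697 cells and 9 of the 938 members, which stayed in and were removed in an alternative.

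Counts were summed per library and tested with edgeR 4.0.16 (R 4.3.3): TMM, filterByExpr, adjusted p 0.05, at least 20 cells a library, a batch term for treatment, a library block for type, and both with type by batch for the interaction. Genes of the rule were left out of the type comparison. Standard errors were worked back from the F statistic. DESeq2 1.42.0 and limma 3.58.1 served as alternatives, and the script was tested on simulated data. Genes were named by rule: up to 12 rises and 12 falls past the threshold at 20 CPM or more, 10 of smallest p where fewer than 5 passed, 3 of each of the gene lists, αV and its partners, the genes of the rule and the 20 most abundant that are not mitochondrial or ribosomal. The members and lists were chosen with earlier results of these data known. A few items are not reported here.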

Additional observations from a re-analysis of the deposited data

Results flagged for a closer look

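The response to CWHM-12 differed between pericentral-type and portal-type cells for 23 of 4323 genes in a test of the interaction (edgeR's quasi-likelihood test with a library block and a type-by-batch term). Values are log2 of the response in pericentral-type over that in portal-type cells. MHC class II and leukocyte genes led the positive ones, with Alox5ap at 6.996, Ccr2 at 6.42, H2-Eb1 at 4.78, H2-Aa at 4.04, H2-Ab1 at 3.93, Mpeg1 at 3.55, Cd74 at 3.49 and Cd52 at 3.401. Others were Hba-a2 at 5.27, the fibroblast and endothelial marker Cd34 at 4.84, the smooth muscle actin Acta2 at 4.44 and the endothelial nuclease Dnase1l3 at 3.86. Hepatocyte enzymes made up the negative ones, with Rgn at -3.55, Inmt at -2.99, Adh1 at -2.81, Fabp1 at -2.35, Phyh at -1.84 and Acaa2 at -1.72.

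Most of these genes mark other cell types, and many of their counts came from few barcodes of either type. For H2-Aa, Mpeg1 and Cd74 the barcodes concerned are those with at least 10 myeloid or MHC class II UMIs, 20 of 449 pericentral-type barcodes with CWHM-12 and 19 of 489 with DMSO. Among portal-type cells 3 barcodes held 1604 of 1667 such UMIs in CWHM-12 1, and 1 barcode held 975 of 1011 in DMSO 3. For Hba-a2, 1 portal-type barcode of DMSO 1 held 673 of that library's 690 haemoglobin UMIs, and 1 pericentral-type barcode of DMSO 3 held 1719 of 1797. Other genes that passed with the positive sign were Col1a1, Col1a2, Col3a1, Naaa and Ppt1. DMSO 2, which this test left out, had 7588 CPM of Col1a1 and 1157 CPM of Acta2 in its pericentral-type cells. In the restricted cells 6 genes passed, all negative. The part of RNA from other cells in this interaction was not tested further.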

How the results depend on the processing

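Restrictions to cells with at least 5 stellate genes, without barcodes rich in haemoglobin or myeloid transcripts, and all of these together were chosen after seeing the data. For pericentral-type cells, 0 treatment calls became 59 without the filter on low counts, 6 with DESeq2, 4 with the replicate number as a block and 0 to 3 without one library. For all stellate cells, 0 calls became 56 without the filter, 3 with DESeq2, 2 with at least 5 stellate genes and 0 to 2 without one library. The 221 calls between types became 504 without the filter, 333 with voom and 133 with 0 UMIs of excluded genes. They became 187 with the zonal rule after thinning, 323 without myeloid-rich barcodes and 574 against all other stellate cells. With the stricter cell filter, which kept CWHM-12 2, CWHM-12 3 and DMSO 3 only, 136 genes passed. Without one library the count was 90 (without DMSO 1) to 240, and 143 without CWHM-12 2. The 23 interaction calls became 12 with DESeq2 size factors, 36 without the filter, 0 with DESeq2, 10 without doublets, 6 with at least 2 zonal UMIs, 0 without the type-by-batch term, 10 with at least 5 stellate genes, 6 in the restricted cells and 1 (without CWHM-12 2) to 56 (without DMSO 3) without one library. The stricter filter could not be fitted for the interaction. The share difference, -4.33 points, was -9.33 (without DMSO 1) to 2.08 (without CWHM-12 1) without one library, and 0.0563 without DMSO 3. With the replicate block its exact sign-flip p was 0.25, the smallest possible. Replicate numbers gave correlations of 0.0369, -0.0813 and 0.148 between same-numbered libraries and so do not pair them.

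Of 112 single-gene results under 2074 alternatives, 1889 values kept direction and side of the threshold and 22 reversed. Between types these were Col1a1 (-0.10 with at least 5 stellate genes, -0.15 restricted), Acta2 (0.55 with voom, 0.86 against all other stellate cells), Rbp4 (0.11, stricter filter) and Itgav (0.0897 without the filter, 0.194 stricter filter, -0.347 to 0.0491 without one library, positive without DMSO 1). In pericentral-type cells under treatment they were H2-Aa (-0.17 without myeloid-rich barcodes, -0.14 restricted), H2-Ab1 (-0.47 without myeloid-rich barcodes), Hba-a1 (-6.18 to 0.146 without one library, positive without DMSO 3) and Itgav (-0.348 to 0.601 without one library, negative without CWHM-12 1 or DMSO 1, -0.0162 with at least 5 stellate genes). In all stellate cells they were Rspo3 (-0.149 to 0.0789 without one library, positive without CWHM-12 1 or DMSO 2, 0.0885 without the batch term, 0.0774 with the replicate block, 0.0275 without myeloid-rich barcodes, 0.0154 restricted) and Hba-a1 (0.0670 without haemoglobin-rich barcodes). The causes were not tested. Portal-type sums of 80241 to 113427 UMIs a library limit the type comparison to genes of moderate level.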

Other observations

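Pericentral-type cells that held Adamtsl2 may be set beside those admitted by Rspo3 alone. The comparison is a description, with no test, within the restricted cells, 270 with Adamtsl2 (median 3126.5 UMIs) and 455 with Rspo3 alone (median 2061 UMIs). Of 5622 genes with at least 60 UMIs, 130 were higher in the cells with Adamtsl2 in 6 of 6 libraries (2.312%) and 103 lower (1.832%). Such agreement also arises by chance, and whether these shares exceed it was not tested. Genes chosen after their values were seen include Dkk3, at 154 ± 74.1 CPM in cells with Adamtsl2 and 60.3 ± 38.6 CPM in those with Rspo3 alone (SD, n = 6 libraries), Wnt5a, a non-canonical Wnt ligand, at 68.7 ± 43.1 and 26.9 ± 23.9 CPM in the same order, and Lum at 590 ± 120.1 and 421 ± 119 CPM. Vtn was at 27.5 ± 30.9 CPM in cells with Adamtsl2 and 77.1 ± 50.5 CPM in those with Rspo3 alone, Itgb3 at 126 ± 42.9 and 197 ± 81.3 CPM, and Lama1 at 249 ± 67.6 and 337 ± 69.2 CPM. Of these, Dkk3 and Lum were also higher and Vtn, Itgb3 and Lama1 also lower in pericentral-type than in portal-type cells. Both comparisons draw on the same pericentral-type cells, so they are not independent of each other. The cells with Rspo3 alone were shallower, and the part of depth in these differences was not tested.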
